A study of Mus musculus with 19 samples.

Results

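Transcription factors of naive and resting T cells were followed in CD4+ regulatory T cells (Tregs) after burn injury. The members were the 8 rows of the gene count table listed as SATB1, TCF7, LEF1, BACH2, FOXP1, MYB, ETS1 and RUNX1, out of 24982 genes listed, and were chosen by name. The members and the gene lists used below were chosen with earlier results of these data known. Their counts set beside all genes therefore describe these data and are no test of enrichment. All 8 members passed the filter on low counts that left 11464 genes for testing. The table held bulk RNA-seq counts of 19 libraries in 4 groups. All mice were Foxp3DTR animals, in which the Foxp3 locus drives a diphtheria toxin receptor joined to GFP, so controls carried this allele too. Mice were 8 to 16 weeks old. They were burned on 20% of the body surface with 90 °C water for 9 seconds, or sham treated, and FoxP3-GFP+ cells were sorted at day 7 from the axillary, brachial and inguinal lymph nodes that drain the injury site. The groups were CD44high Tregs of sham mice (n = 4), CD44low Tregs of sham mice (n = 5), CD44high Tregs of burned mice (n = 4) and CD44low Tregs of burned mice (n = 6). Each library came from 50000 cells. The labels do not say whether a sample was 1 mouse or a pool, so p-values measure the spread between these samples, which may be technical in part.

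T cells that have not met antigen hold a set of nuclear factors that keep them quiescent, responsive to interleukin-7 and able to recirculate through lymph nodes. TCF-1 (encoded by Tcf7) and LEF-1 are closely related DNA-binding partners of beta-catenin, SATB1 folds chromatin and acts early in Treg development, and BACH2 and FOXP1 restrain effector genes. ETS1 and RUNX1 act at many T cell genes, Foxp3 among them, and MYB is linked to immature, dividing and effector cells. High CD44 marks activated or effector Tregs, and low CD44 the resting ones.

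Library totals ran from 5582234 to 9433610 counts, with the highest group in CD44high Tregs of burned mice (7616633 to 9433610). One of these, CD44high burn library 2, stood apart from its group. Its mean squared difference from the other 3 libraries was 14.7 to 35.0 times that of counting error per gene, against 9.65 to 11.6 among the others. The sort was visible in Cd44 itself, which was 4.46-fold higher in CD44high than CD44low Tregs of sham mice and 3.72-fold higher in burned mice (adjusted p = 6.2e-13 and 3.4e-12, edgeR). The transcripts Cd3e, Cd4, Foxp3, Il2ra and Ikzf2 of T cells and Tregs were present in all groups, and of these Il2ra was lower and Ikzf2 higher in CD44high Tregs of sham mice (log2 fold change -0.62 and 0.92, adjusted p = 0.0012 and 0.00028). Markers of other cells were low but not absent. The summed level of 5 B cell markers was 70.3 to 206 CPM (counts-per-million, scaled by edgeR's TMM factors) over all libraries. These sums overlapped between the subsets. Among the markers Cd79b was higher in CD44high Tregs of sham mice (log2 0.84, adjusted p = 0.00037), and 4 did not pass the test. The sums of the 5 CD8 T and NK cell markers and of the 5 myeloid markers, the latter mostly Lyz2, were higher in CD44high libraries of sham mice. Of the former Nkg7 and Klrb1c were higher there (log2 1.24 and 3.63, adjusted p = 5.1e-07 and 0.00013). Cd8a, Cd8b1 and Ncr1 did not pass the test (log2 -0.21, -0.13 and 2.14, adjusted p = 0.54, 0.47 and 0.071). The CD8 T and NK cell markers summed to 117 to 157 CPM in CD44high and 80.8 to 111 CPM in CD44low libraries of sham mice, and to 118 to 132 and 85.7 to 99.8 CPM after injury. Of these Klrb1c, the NK cell receptor NK1.1, was at 1.60 to 6.78 CPM in CD44high libraries of sham mice and at 10.2 to 16.6 CPM in those of burned mice, without overlap (log2 1.80, adjusted p = 0.063 in edgeR). It rose in CD44low Tregs too (log2 3.00, adjusted p = 0.0087). After injury in CD44high Tregs Cd8a, Cd8b1, Ncr1 and Nkg7 had log2 fold changes of 0.17, -0.04, -0.06 and -0.40, and none passed the test. The myeloid markers summed to 63.2 to 138 CPM in CD44high and 19.8 to 39.3 CPM in CD44low libraries of sham mice, and to 85.3 to 232 and 33.4 to 146 CPM after injury. Their part in the results given here was not tested. Of the 5 stromal and endothelial markers, Pdpn was at 0 in all 19 libraries. Cdh5 and Col3a1 were at 0.667 and 0.713 CPM at most. Col1a1 was at 1.43 to 3.22 CPM in CD44high and at most 0.284 CPM in CD44low libraries of sham mice. The log2 fold change was 4.92 (adjusted p = 6.2e-05). In burned mice Col1a1 was higher in CD44high Tregs too (adjusted p = 0.0053). Pecam1, which T cells also express, carried the sum. It was lower in CD44high than CD44low Tregs of sham mice (log2 -1.73, adjusted p = 5.2e-10). In CD44high Tregs it rose after injury (log2 0.69, adjusted p = 0.0075), so it met the rule for recovery given below.

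The promoters of the 2 members that rose in CD44high Tregs after injury, Satb1 and Tcf7, are shown beside that of Bach2, which also differed widely between the subsets and did not pass the test after injury. Each is 300 bases around the most upstream start site in RefSeq, most of them before it, build GRCm38.p6, read on the gene's strand. Capitals mark a match, on either strand, to CTTTGA or CTTTGT (TCF/LEF core), TGTGGT (RUNX), CGGAAG (ETS), AACGG (MYB), TGANTCA (AP-1 and BACH core) or TGTTTA (forkhead).
Satb1, chr17:51833241-51833540, minus strand: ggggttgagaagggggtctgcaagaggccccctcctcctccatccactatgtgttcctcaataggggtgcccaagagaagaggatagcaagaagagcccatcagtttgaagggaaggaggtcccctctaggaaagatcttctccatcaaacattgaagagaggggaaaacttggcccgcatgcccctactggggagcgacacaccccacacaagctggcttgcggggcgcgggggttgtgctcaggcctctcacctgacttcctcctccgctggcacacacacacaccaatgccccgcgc
Tcf7, chr11:52282965-52283264, minus strand: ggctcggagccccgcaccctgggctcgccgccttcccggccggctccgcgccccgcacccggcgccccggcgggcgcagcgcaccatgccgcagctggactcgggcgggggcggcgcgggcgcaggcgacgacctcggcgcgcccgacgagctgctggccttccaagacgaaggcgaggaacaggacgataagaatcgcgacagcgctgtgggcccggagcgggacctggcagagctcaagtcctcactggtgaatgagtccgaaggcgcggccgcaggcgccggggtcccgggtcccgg
Bach2, chr4:32417185-32417484, plus strand: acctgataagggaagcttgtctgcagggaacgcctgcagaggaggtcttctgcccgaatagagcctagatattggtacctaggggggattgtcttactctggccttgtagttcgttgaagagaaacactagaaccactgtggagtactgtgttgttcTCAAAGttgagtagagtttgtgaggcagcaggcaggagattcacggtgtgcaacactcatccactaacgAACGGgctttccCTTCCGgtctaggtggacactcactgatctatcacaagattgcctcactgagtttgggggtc
The windows of Satb1 and Tcf7 held none of these letter strings. In the Tcf7 window an ATG was followed by a reading frame without a stop codon up to the window's end. Much of that window may therefore be coding sequence rather than sequence before the gene, so the lack of matches there says little about its promoter. The Bach2 window held CTTTGA once at 93 bases, AACGG once at 24 bases and CGGAAG once at 12 bases before the start. RefSeq gave a window for 7 of the 8 members, and Ets1 had no entry. In the other windows CTTTGT stood in Foxp1 and Myb, TGTGGT in Runx1 and TGTTTA in Foxp1, Myb and Runx1. Each string is common. Over 32544 promoter windows of the same length, CTTTGA was found in 16%, CTTTGT in 18.7%, TGTGGT in 16.7%, CGGAAG in 17.0%, AACGG in 17.4%, TGANTCA in 7.79% and TGTTTA in 13.4%.

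Differential expression between CD44high and CD44low Tregs of sham mice came first, since this gap is what a recovery is measured against. In CD44high Tregs 6 of the 8 members were lower (Satb1, Tcf7, Lef1, Bach2, Foxp1, Ets1), Myb was higher and Runx1 did not pass the test (edgeR, adjusted p under 0.05). Of all genes tested 21.3% were lower and 24.7% higher by the same rule. The median log2 fold change was -1.25 over the members and 0.01 over all genes. For 7 of 8 members every library of one subset was above every library of the other, against 40.7% of all genes. In bulk RNA, fewer cells that express a gene and less RNA per cell cannot be told apart.

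**Figure D1:**
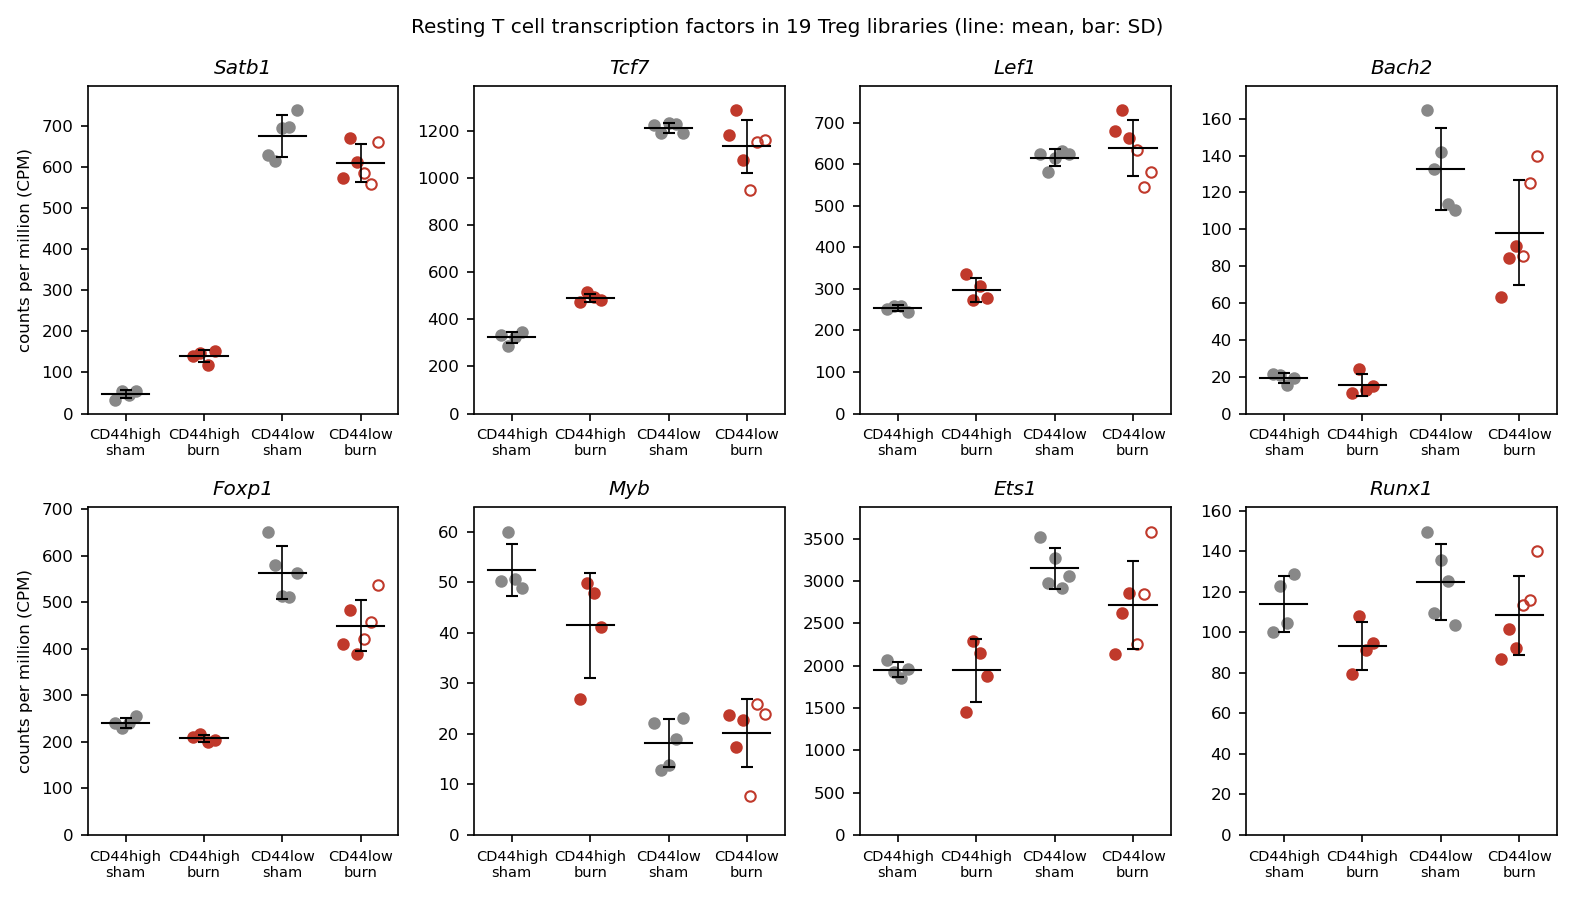
Level of each member in every library. The vertical axis of each panel is CPM from 0, points are libraries (grey sham, red burn, open circles the injured CD44low libraries with a second number in their label), lines are group means and bars SD. Satb1 and Tcf7 libraries of CD44high burn sit above all CD44high sham libraries and below all CD44low libraries.

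Satb1, the chromatin organizer, had the widest gap. Its level in sham mice was 32.8, 55.4, 45.7 and 54.8 CPM in the CD44high libraries and 628, 615, 695, 697 and 738 CPM in the CD44low libraries. Every CD44high library lay far below every CD44low library. The means of 47.2 ± 10.6 (SD, n = 4) and 675 ± 51.4 CPM (SD, n = 5) differed by 14.3-fold (log2 fold change -3.83 ± 0.14 SE, adjusted p = 7.6e-16), which was rank 3 by p of all genes tested.

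Bach2, a repressor of effector programs, was the least abundant member in CD44high Tregs. Its level was 21.2, 21.0, 15.5 and 19.2 CPM in CD44high and 165, 133, 142, 114 and 111 CPM in CD44low libraries of sham mice, again with no overlap. The difference was 6.90-fold (log2 -2.79 ± 0.23 SE, adjusted p = 9.0e-10).

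The TCF/LEF pair was lower together. Tcf7 was at 333, 289, 327 and 344 CPM in CD44high and at 1226, 1192, 1234, 1229 and 1192 CPM in CD44low libraries, a difference of 3.76-fold (log2 -1.91 ± 0.09 SE, adjusted p = 3.4e-14). The CD44low libraries were nearly alike, and both sets were well apart. Lef1 was at 252, 259, 259 and 243 CPM in CD44high and at 625.2, 582, 616, 633 and 624 CPM in CD44low libraries, a difference of 2.43-fold (log2 -1.28 ± 0.09 SE, adjusted p = 7.1e-11).

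Foxp1, a forkhead factor of quiescence, was at 240, 230, 241 and 256 CPM in CD44high and at 652, 580, 514, 511 and 563 CPM in CD44low libraries of sham mice. No library of one subset reached the other, and the difference was 2.34-fold (log2 -1.22 ± 0.10 SE, adjusted p = 5.8e-10). Ets1, the most abundant member, was at 2065, 1922, 1858 and 1968 CPM in CD44high and at 3521, 2977, 3271, 2922 and 3059 CPM in CD44low libraries. Its gap was the smallest of the 6, at 1.61-fold (log2 -0.69 ± 0.13 SE, adjusted p = 0.00017), and the subsets still did not overlap.

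Myb went the other way. It was at 50.3, 60.0, 50.7 and 48.9 CPM in CD44high and at 22.2, 12.9, 13.9, 18.97 and 23.1 CPM in CD44low libraries, so that all CD44high libraries were the higher ones (2.88-fold, log2 1.53 ± 0.25 SE, adjusted p = 2.3e-05). Runx1, the partner of CBF-beta, was at 100, 123, 105 and 129 CPM against 150, 109, 136, 125 and 104 CPM. These ranges overlapped, and the log2 fold change of -0.13 had a 95% interval from -0.42 to 0.16 (adjusted p = 0.47). With the trend on transcript length taken out of each library it was 0.18 (adjusted p = 0.18).

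In burned mice the same members were called between the subsets. Of the 8, 6 were lower in CD44high Tregs and Myb was higher, where 17.2% of all genes were lower and 20.1% higher, and the members' median log2 fold change was -1.11 against -0.0005 over all genes. The ranges of the subsets were apart for 6 members, against 24.8% of all genes, with Ets1 and Runx1 overlapping. The gap was 4.37-fold for Satb1 (log2 -2.13), 2.31-fold for Tcf7 (-1.21), 2.14-fold for Lef1 (-1.10), 6.23-fold for Bach2 (-2.64), 2.16-fold for Foxp1 (-1.11) and 1.40-fold for Ets1 (-0.48). Myb was 2.05-fold higher in CD44high Tregs. Runx1 had a log2 fold change of -0.21 with an interval from -0.49 to 0.07. With only the injured CD44low libraries that carry a second number in their label, this became -0.42 with an adjusted p of 0.025.

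**Figure D2:**
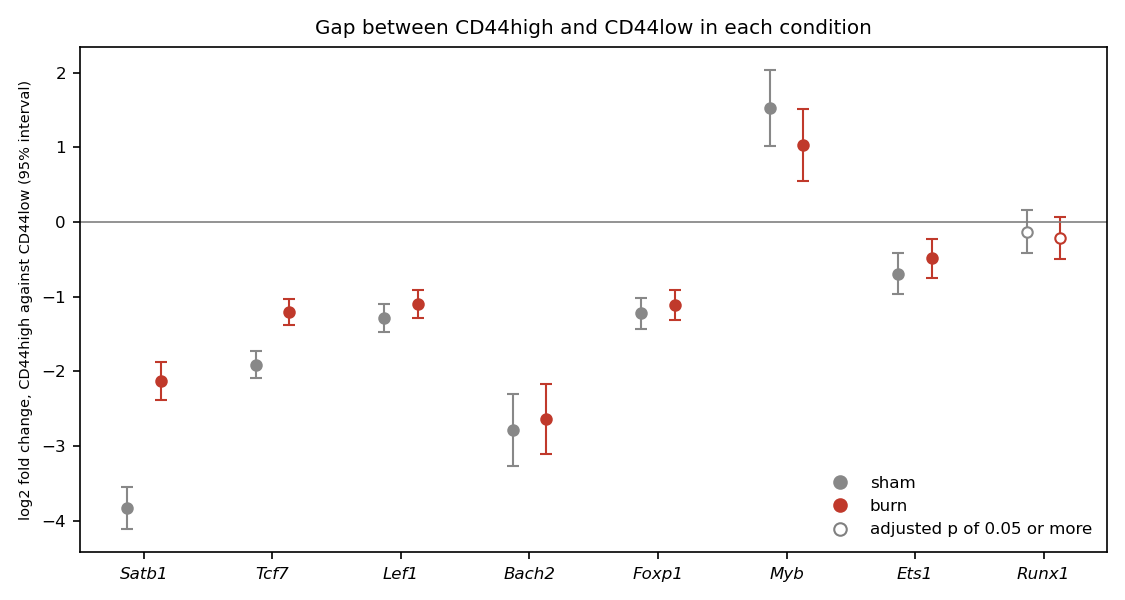
Log2 fold change of CD44high against CD44low Tregs for each member, in sham (grey) and burn (red), with 95% intervals from edgeR. Open points have an adjusted p of 0.05 or more. The points of Satb1 (-3.83 and -2.13) and Tcf7 (-1.91 and -1.21) move towards 0 after injury with no overlap of intervals, while those of Lef1, Bach2 and Foxp1 overlap.

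Injury was then compared within CD44high Tregs, the comparison that asks which members recover. Satb1 and Tcf7 rose and no member fell at an adjusted p under 0.05. Of all genes tested 1.06% rose and 1.33% fell. At an unadjusted p under 0.05 Lef1 would join those that rose and Foxp1 would be counted as lower, and DESeq2 also called 2 higher and 0 lower. The members' median log2 fold change was -0.11, and that of all genes -0.02. Libraries did not overlap between sham and burn for Satb1, Tcf7 and Lef1 (all higher) and Foxp1 (lower), 4 of 8 members, against 13.3% of all genes.

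Satb1 was at 141, 147, 119 and 151 CPM in the CD44high libraries of burned mice. Each was more than any CD44high library of sham mice, of which the highest had 55.4 CPM, and less than the lowest CD44low library of either condition (558 CPM). The rise was 2.95-fold (log2 1.56 ± 0.13 SE, 95% interval 1.29 to 1.83, adjusted p = 2.3e-07), the smallest p of all 11464 genes. Tcf7 was at 472, 516, 494 and 484 CPM in burned mice, all above the 4 sham libraries, with a rise of 1.52-fold (log2 0.60 ± 0.09 SE, 95% interval 0.42 to 0.79, adjusted p = 0.00033, rank 25). Without CD44high burn library 2 the log2 fold changes were 1.57 and 0.63, and with every library thinned to 5582234 counts 1.59 and 0.63.

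Lef1, the close relative of Tcf7, was at 336, 273, 306 and 277 CPM. All 4 libraries were higher than those of sham mice, but the change of 1.18-fold (log2 0.24 ± 0.10 SE, 95% interval 0.04 to 0.43) had an adjusted p of 0.22. Library 2, which stood apart, was the highest, and without it the log2 fold change was 0.18.

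Bach2 was at 11.02, 24.2, 12.6 and 14.8 CPM, 3 libraries below all those of sham mice and 1 above them (log2 -0.29, 95% interval -0.79 to 0.21, adjusted p = 0.64). Foxp1 was at 211, 218, 200 and 205 CPM, all below the sham libraries, with a log2 fold change of -0.21 (95% interval -0.43 to -0.0002, adjusted p = 0.33). The intervals of both leave no room for a rise of the size of Satb1's. Myb was at 27.0, 49.9, 48.0 and 41.1 CPM (log2 -0.34, interval -0.86 to 0.19), Ets1 at 1450, 2296, 2152 and 1882 CPM (log2 -0.01, interval -0.29 to 0.28) and Runx1 at 79.4, 108, 91.4 and 94.6 CPM (log2 -0.29, interval -0.59 to 0.02). In each of these 3 the lowest library was library 2, and each overlapped its sham group.

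By the rule that a recovering gene is lower in CD44high than CD44low Tregs of sham mice and higher after injury in CD44high Tregs, both at an adjusted p under 0.05, 2 members recovered, Satb1 and Tcf7. Over all genes 0.584% met this rule, and of the 2443 genes lower in CD44high Tregs 2.74% rose after injury. The recovery was partial. Expressed as the way from the mean of CD44high sham libraries to that of CD44low sham libraries on the CPM scale, the CD44high burn libraries stood at 14.7% for Satb1 (range over 4 libraries 11.5% to 16.6%) and at 18.9% for Tcf7 (16.7% to 21.6%). Lef1 stood at 12.4%, with a wide range from 5.40% to 22.8%. Bach2 stood at -3.14%, Ets1 at -0.706% and Foxp1 at -10.3%, a negative share meaning a level further from CD44low than in sham mice. The median of the 2443 genes was 2.85%, with quartiles at -12.7% and 21.3%. The means of these 6 members lay between the quartiles. These shares use the same sham CD44high libraries in both distances and are given without a test.

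**Figure D3:**
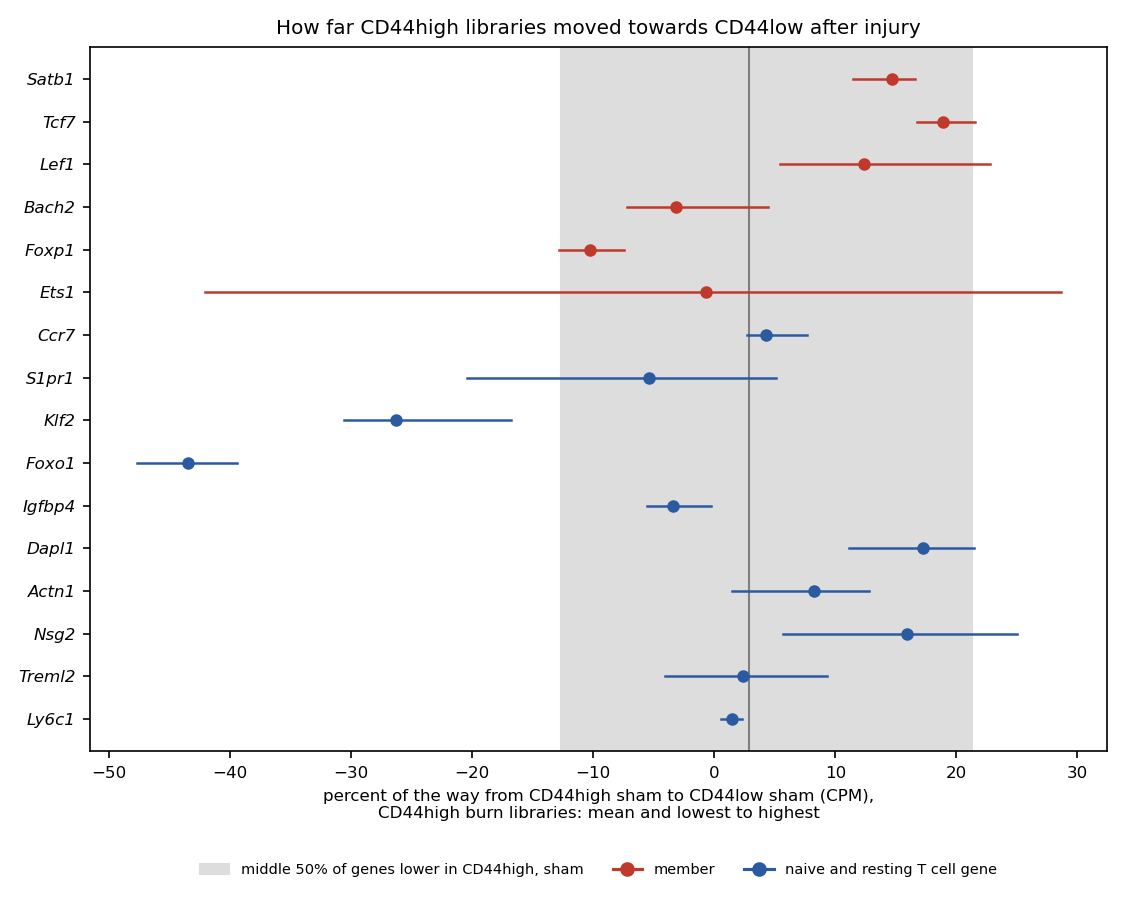
Share of the distance from CD44high sham to CD44low sham that CD44high burn libraries covered, in percent of CPM, for the 6 members (red) and 10 naive and resting T cell genes (blue) that were lower in CD44high sham. Points are means and lines run from the lowest to the highest of 4 libraries, the grey line and band are the median (2.85%) and the middle 50% of the 2443 genes lower in CD44high sham. Tcf7 (18.9%), Satb1 (14.7%), Lef1 (12.4%), Dapl1 (17.3%) and Nsg2 (15.9%) lie right of the median in all libraries. Foxp1 (-10.3%), Klf2 (-26.3%) and Foxo1 (-43.5%) are among those left of it.

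Transcripts of Cd44, whose protein was used for the gate, and of cycling cells leaned lower beside this result. Cd44 was at 541 to 626 CPM in CD44high libraries of sham mice and at 369 to 497 CPM in those of burned mice, with no overlap, though the test across genes gave an adjusted p of 0.055 (log2 -0.45). The 15 cycling cell genes were all higher in CD44high than CD44low Tregs in both conditions, where 24.7% (sham) and 20.1% (burn) of all genes were. After injury in CD44high Tregs all had negative log2 fold changes (-0.85 to -0.092, median -0.44). At an unadjusted p under 0.05 in edgeR 10 of the 15 were lower, and DESeq2 called 3 lower. In edgeR 1 passed the test, where 1.33% of all genes fell. This was Mcm7, a subunit of the replicative helicase (log2 -0.44, adjusted p = 0.038). That call was lost in 15 of 19 fits that left out 1 library (adjusted p 0.026 to 0.20). Whether these levels bear on the rise of Satb1 and Tcf7 was not tested.

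In CD44low Tregs most members stayed within their spread after injury. No member rose and 1 of 8, Foxp1, fell, where 4.24% of all genes rose and 3.36% fell. DESeq2 called 0 higher and 1 lower, and at an unadjusted p under 0.05 in edgeR 0 were higher and 2 lower, Foxp1 and Bach2. All 8 members overlapped between sham and burn libraries, whereas 4.68% of all genes did not. The members' median log2 fold change was -0.18 against 0.01 over all genes.

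Foxp1 ran from 390 to 538 CPM in burned mice, with a median of 439 CPM, against 511 to 652 CPM in sham mice. Most injured libraries lay below the sham libraries, and 1 lay among them (log2 -0.32 ± 0.09 SE, adjusted p = 0.026). With the trend on transcript length taken out of each library this was -0.04 (adjusted p = 0.85), and the call was also lost in 5 of 19 fits that left out 1 library. Those libraries were CD44low sham 1, 2 and 5 and CD44low burn 1 and 5, and the log2 fold change without each was -0.24, -0.29, -0.30, -0.28 and -0.26.

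Satb1 ran from 558 to 669 CPM (median 598) and Tcf7 from 949 to 1289 CPM (median 1158) in the CD44low libraries of burned mice. Both ranges reached into those of sham mice, with log2 fold changes of -0.15 (95% interval -0.36 to 0.07) and -0.10 (-0.26 to 0.06). Lef1 ran from 546 to 730 CPM (log2 0.05, interval -0.11 to 0.22). Bach2 ran from 63.2 to 140 CPM with a median of 88.2, and most of the libraries were below the sham ones (log2 -0.44, interval -0.82 to -0.05, adjusted p = 0.14). Myb ran from 7.76 to 25.9 CPM, Ets1 from 2135 to 3584 CPM and Runx1 from 86.7 to 140 CPM, with log2 fold changes of 0.15, -0.21 and -0.21 and intervals that all held 0.

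Of the 6 injured CD44low libraries 3 carry a second number in their label, whose meaning the sources used here do not give, and several members differed between the sets. Bach2 averaged 79.5 ± 14.5 CPM in the libraries without it and 117 ± 28.3 CPM in those with it (SD, n = 3 each), and Runx1 93.5 ± 7.54 and 123 ± 14.8 CPM. Lef1 leaned the other way, with 691 ± 34.8 and 587 ± 44.5 CPM. These differences were not tested. Without the second-number libraries Bach2 and Runx1 were also lower after injury in CD44low Tregs (log2 -0.74 and -0.42, adjusted p = 0.015 and 0.037), and Bach2 also without library 5_2 alone (log2 -0.54, adjusted p = 0.039). Satb1 hardly differed between the sets, at 617 ± 48.6 and 601 ± 52.9 CPM.

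**Figure D4:**
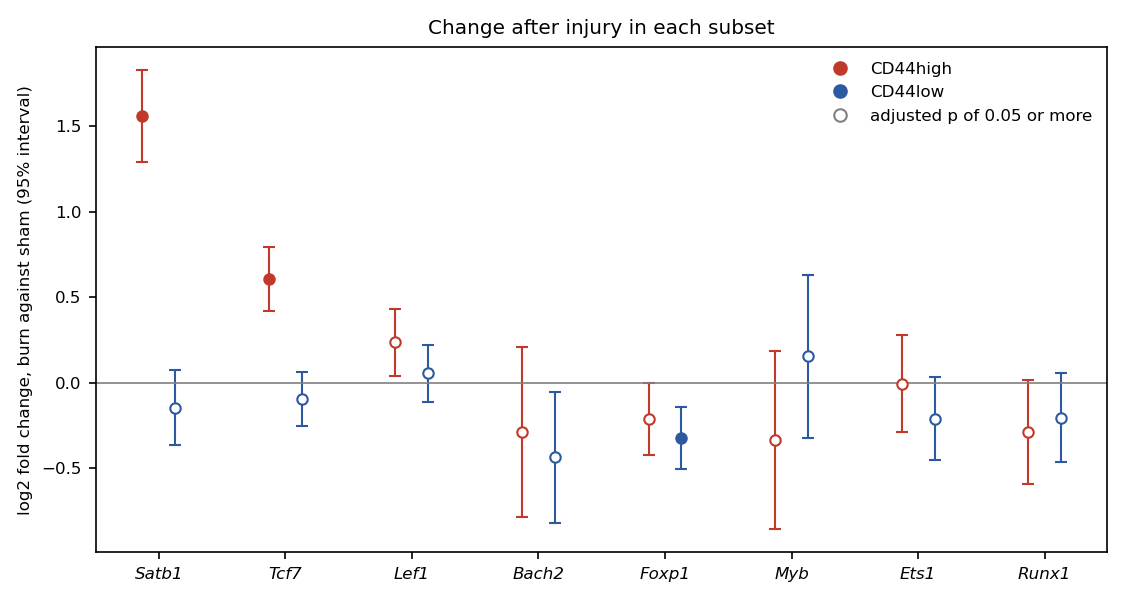
Log2 fold change of burn against sham for each member in CD44high (red) and CD44low (blue) Tregs, with 95% intervals from edgeR. Open points have an adjusted p of 0.05 or more. Satb1 (1.56) and Tcf7 (0.60) stand above 0 in CD44high Tregs and near 0 in CD44low Tregs, and Foxp1 (-0.32) is the 1 filled point below 0.

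Whether injury acted differently in the subsets was tested by the interaction. Satb1 and Tcf7 had a more positive change in CD44high than CD44low Tregs, and no member a more negative one, where 0.192% of all genes were called higher and 0.454% lower. The interaction was 1.71 ± 0.17 SE on the log2 scale for Satb1 (adjusted p = 4.7e-06, rank 1 of all genes) and 0.70 ± 0.12 SE for Tcf7 (adjusted p = 0.0032, rank 15). DESeq2 and an unadjusted p under 0.05 both gave 2 higher and 0 lower as well. For the other 6 the values and 95% intervals were 0.18 (-0.08 to 0.44) for Lef1, 0.15 (-0.48 to 0.78) for Bach2, 0.11 (-0.17 to 0.39) for Foxp1, -0.49 (-1.20 to 0.22) for Myb, 0.21 (-0.17 to 0.58) for Ets1 and -0.08 (-0.48 to 0.32) for Runx1. The comparisons of the subsets and of injury share the same 4 sham CD44high libraries, so they are not independent readings of Satb1 and Tcf7.

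The members kept nearly the same order when levels were divided by transcript length. Ets1, Tcf7 and Lef1 were the first 3 in all 4 groups, at 384, 131 and 72.7 CPM per kb in CD44high sham libraries and 620, 491 and 177 CPM per kb in CD44low sham libraries. Satb1 changed place most. It was 7th of 8 in CD44high Tregs of sham mice at 7.56 ± 1.69 CPM per kb (SD, n = 4), under Myb and Runx1, and 5th in those of burned mice at 22.3 ± 2.27, above both, while it was 4th in CD44low Tregs of either condition. Bach2 was last in CD44high Tregs (2.17 and 1.76 CPM per kb) and Myb last in CD44low Tregs (4.94 and 5.48). Neighbours in this order overlapped for Runx1 with Bach2 in both CD44low groups and for Ets1 with Tcf7 in the CD44low libraries of burned mice. Other neighbours did not overlap.

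**Figure D5:**
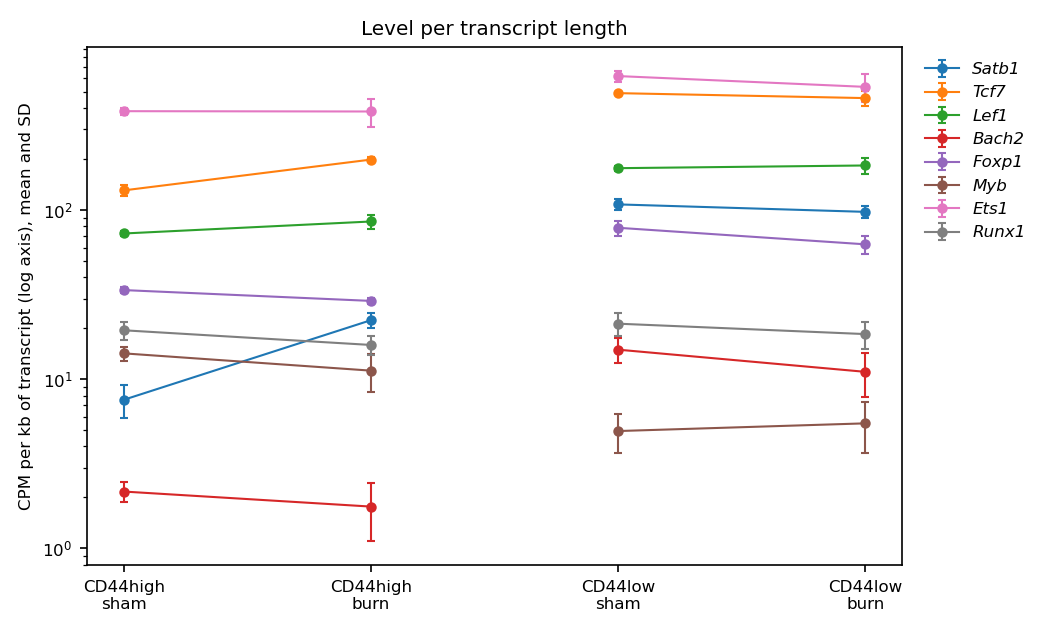
CPM per kb of the longest transcript (log axis) for each member in the 4 groups, as means with SD over 4, 4, 5 and 6 libraries from left to right. Satb1 climbs from 7.56 to 22.3 in CD44high Tregs after injury and passes Runx1 and Myb.

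Genes with the pattern most like a member were sought by the root mean square difference of centred group means (log2 CPM, 4 groups). For Satb1 these were Gm13546, Art2b, which encodes a surface ADP-ribosyltransferase of T cells, and Ms4a4c, at 0.21 to 0.23. Art2b averaged 8.38 CPM in CD44high sham, 35.6 in CD44high burn, 119 in CD44low sham and 129 in CD44low burn libraries. For Tcf7 they were Clcn2, Myh10 and Ifi208, an interferon-inducible gene that averaged 42.4, 58.5, 154 and 143 CPM in the same order, while Clcn2 and Myh10 stayed under 2 CPM. For Lef1 the nearest was H2-Ob, for Bach2 Amigo2, for Foxp1 Zfp592 and Pik3cd, for Myb Tubb6, for Ets1 Med13 and for Runx1 Osbpl7 and Msn.

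Relatives and partners of the members lay on both sides of the gap between the subsets. Of 26 listed, 22 were tested, and in CD44high Tregs of sham mice 6 were higher and 10 lower, with a median log2 fold change of -0.56, where 24.7% of all genes were higher and 21.3% lower. Among those higher were Runx3 and Runx2 (log2 1.21 and 2.28, adjusted p = 1.3e-07 and 6.0e-07), their common partner Cbfb (0.85, adjusted p = 4.2e-07), the ETS factor Fli1 (0.60) and Mybl2, a cell cycle factor that reached 16.05 to 25.9 CPM in CD44high and at most 0.710 CPM in CD44low libraries. Among those lower were Tcf7l1, another TCF factor, and the corepressor Tle1 (log2 -1.75 and -1.09, adjusted p = 3.8e-05 and 3.9e-05). After injury in CD44high Tregs none of the 22 passed the test in edgeR or in DESeq2. In edgeR 1.06% of all genes rose and 1.33% fell. At an unadjusted p under 0.05 2 of the 22 were higher and 3 lower. In the interaction edgeR called 1 of the 22, where 0.192% of all genes were higher and 0.454% lower. This was the ETS factor Elf2 (log2 1.28, adjusted p = 0.0065), and DESeq2 called 1 higher and 1 lower. Elf2 averaged 67.9 CPM in CD44high sham, 93.9 in CD44high burn, 130 in CD44low sham and 73.7 in CD44low burn libraries. Most of the difference thus lay in CD44low Tregs (log2 -0.82, adjusted p = 0.0028).

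Other genes of naive and resting T cells were set beside the members. Of the 11 reported here, 10 were lower in CD44high than CD44low Tregs of sham mice and Il7r, the interleukin-7 receptor, was higher. Of all genes 21.3% were lower and 24.7% higher. After injury in CD44high Tregs 0 of these 11 rose and 0 fell in edgeR, where 1.06% of all genes rose and 1.33% fell. At an unadjusted p under 0.05 3 were higher and 3 lower, and DESeq2 called 1 and 1. Of the 10 genes lower in CD44high sham libraries, Dapl1 and Nsg2 covered 17.3% and 15.9% of the way, near Satb1 and Tcf7. Actn1 covered 8.23%, Treml2 2.39% and S1pr1 -5.39%. None of these had a change after injury that passed the test. On the log2 scale Actn1, Dapl1 and Nsg2 changed by 0.90, 0.68 and 0.47 (adjusted p = 0.12, 0.25 and 0.094 in edgeR), against 0.60 for Tcf7. Treml2 and S1pr1 changed by 0.30 and -0.08. The genes with the smallest p in the gap itself covered little. Ly6c1, a surface protein of resting and memory cells, was 22.5-fold lower in CD44high sham libraries and covered 1.48% (range 0.517% to 2.29%), and Igfbp4, 9.38-fold lower, covered -3.42% (-5.60% to -0.284%). Ccr7, the chemokine receptor that guides cells into lymph nodes, covered 4.24% (2.74% to 7.69%). Their log2 fold changes after injury were 0.40, -0.49 and 0.13 (adjusted p = 0.36, 0.20 and 0.56). Klf2 and Foxo1, factors of quiescent T cells, covered -26.3% and -43.5%. Foxo1 fell in CD44low Tregs (log2 -0.47, adjusted p = 0.0016), as Foxp1 did, but with the trend on transcript length taken out it was -0.13. In CD44high Tregs Foxo1 was at 574 to 671 CPM in sham and at 462 to 486 CPM in burned mice (log2 -0.35, adjusted p = 0.051). The interaction of Foxo1 was 0.12 (adjusted p = 0.80). Il7r rose in CD44low Tregs, from 101 to 156 CPM in sham libraries to 242 to 438 CPM in burned ones (log2 1.28, adjusted p = 1.7e-05), and its interaction was -1.23 (adjusted p = 0.0042).

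Effector Treg transcription factors stood opposite to the members. In CD44high Tregs of sham mice 10 of 12 were higher and 0 lower, where 24.7% of all genes were higher and 21.3% lower. Their median log2 fold change was 2.40, and no member of this list was lower by an unadjusted p under 0.05 or in DESeq2. Prdm1, which encodes Blimp-1, Id2 and Rora were 11.9-fold, 9.14-fold and 8.63-fold higher (adjusted p = 4.4e-13, 1.3e-15 and 7.6e-16). After injury in CD44high Tregs the median log2 fold change of the 12 was -0.34. In edgeR 1 of them fell, where 1.33% of all genes fell and 1.06% rose. This was Tbx21, which encodes T-bet. It was at 30.7 to 34.4 CPM in sham and at 12.1 to 17.5 CPM in burned mice, with no overlap (log2 -1.20, adjusted p = 0.0012), but its interaction of -1.01 had an adjusted p of 0.10. In the interaction 2 of the 12 were lower, against 0.454% of all genes. They were Id2 and Rora (log2 -0.84 and -0.64, adjusted p = 0.011 and 0.043). The change of Id2 was -0.38 in CD44high (adjusted p = 0.096) and 0.47 in CD44low Tregs (adjusted p = 0.014). That of Rora was -0.39 (adjusted p = 0.054) and 0.24 (adjusted p = 0.12). In CD44low Tregs 3 of the 12 rose, Batf, Id2 and Maf, and 0 fell, where 4.24% of all genes rose and 3.36% fell. The interaction call of Rora was lost in 14 of 19 fits that left out 1 library (adjusted p 0.017 to 0.11). None of the 12 rose in CD44high Tregs after injury in edgeR or DESeq2. DESeq2 called 4 of them lower, and at an unadjusted p under 0.05 in edgeR 1 was higher and 6 lower.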

How the data were processed

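Per the labels, RNA of 50000 sorted cells per sample was made into SMART-Seq v4 cDNA and Swift libraries. The values used are raw counts of reads per gene that the authors deposited, made with STAR and without normalization. The submitters' processing notes name STAR 2.5, bcl2fastq 2.18 and the builds mm9 and mm10, without saying which build served the counts, so coordinates here are those of RefSeq on GRCm38.p6. Each column took its sample from its label.

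Counts were analysed with edgeR 4.0.16 (R 4.3.3) with TMM factors, after its filter on low counts (minimum 10), and with 1 mean per group over all 19 libraries. Its two-sided quasi-likelihood test was used, and p-values were adjusted by Benjamini-Hochberg over 11464 genes. CPM are counts over TMM-scaled totals, group patterns used log2 CPM with a prior count of 2, and transcript lengths came from the longest GENCODE vM21 transcript. DESeq2 1.42.0 and the settings named in the closing section were alternatives. The fits were tested on simulated data. Libraries of a group differed by 4.96 to 41.3 times counting error per gene, so none was a copy of another. Named were all members, and per list genes of smallest p and the markers of the sort, and for each member the tested genes of nearest pattern. The members and lists were chosen with earlier results of these data known. One gene of the list of naive and resting T cell genes is not reported here, and the counts of that list are over the others.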

Additional observations from a re-analysis of the deposited data

Results flagged for a closer look

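The change of Satb1 after injury differed between the subsets by 1.71 on the log2 scale in edgeR's interaction test (higher after injury in 4 of 4 CD44high libraries against all 4 sham libraries, overlapping in CD44low), and that of Tcf7 by 0.70 in the same way. These were the 2 members whose interaction passed the test. Myb was at 60.0 CPM in CD44high sham library 3, far from the other 3 libraries of its group (48.9 to 50.7 CPM) by Dixon's test. It was 1 of 32 groups of libraries tested, where chance flags about 1 in 20.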

How the results depend on the processing

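The members called between the subsets in sham and in burned mice (7 each) kept that count under all alternatives run but 3. Both fell to 6 with a 2-fold change required as well and to 5 at an unadjusted p under 1e-06 with a 2-fold change, and that in burned mice was 8, with Runx1, on the second-number libraries alone. In CD44high Tregs, in the interaction and for recovery the count of 2 stayed at 2 under DESeq2, RLE factors, no filter, the compared groups alone where these could be fitted, thinning, removal of the length trend, either set of second-number libraries and each library left out. It was 1 in each of the 3 (Satb1) with a 2-fold change required as well, at an adjusted p under 0.05 or an unadjusted p under 1e-06. In CD44low Tregs the count of 1 (Foxp1) was 0 with no filter, the compared groups alone, the replicate block, the second-number libraries alone, the length trend removed or a 2-fold change, was 3 without the second-number libraries, and ran from 0 to 2 with 1 library left out. Whether equal label numbers pair samples of the 2 subsets could not be settled, with 4 such pairs in each condition. Correlations of their deviations were -0.0537 to 0.167 in burned and -0.0068 to 0.118 in sham mice. Pairs with unequal numbers ran from -0.452 to 0.410 and from -0.0798 to 0.0395. The replicate block changed no other count. The size of the gap between the sham subsets depended on the setting for some members. Over the 10 alternative fits that did not leave out a single library, Foxp1 ran from -1.24 to -0.82 on the log2 scale. Ets1 ran from -0.73 to -0.46 and Bach2 from -2.84 to -2.29, while Lef1 ran from -1.30 to -1.27. Signs turned only for values that had not passed the test. With the length trend removed Satb1 in CD44low Tregs was 0.11, Runx1 0.18 between the sham subsets and 0.030 in CD44low Tregs, and the interactions of Bach2 and Foxp1 were -0.092 and -0.070. With the second-number libraries alone Lef1 in CD44low Tregs was -0.047, Runx1 0.0042 and the interaction of Bach2 -0.12, and without them the interaction of Runx1 was 0.13. The change of Ets1 in CD44high Tregs was 0.013 with no filter, 0.021 on the compared groups alone, 0.0056 with the second-number libraries alone, 0.014 after thinning and 0.050 without the length trend, and ran from -0.094 to 0.12 with 1 library left out. The interactions of Bach2 and Runx1 ran from -0.15 to 0.27 and from -0.16 to 0.0012. The causes were not tested. Counts carry no molecular identifiers, and Bach2 and Myb, under 61 CPM in CD44high Tregs, have the widest intervals of the members.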
